A study of Mus musculus with 3 samples.

Results

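The genes described here encode elastic fibre components, proteoglycans, hyaluronan synthases, basement membrane linkers and matricellular proteins, the non-collagen part of the extracellular matrix. They were chosen by name as a list of 58 symbols, with earlier results of these data known. All 58 were found among the 18038 genes of the table. The RNA came from heart tissue of 3 wild-type C57BL/6J mice, an inbred laboratory strain, at day 9 after birth, and no treatment is named. The samples are called hearts 1, 2 and 3 after the replicate numbers in their titles. They form 1 group, so the comparisons are between genes within a heart and between hearts.

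An elastic fibre is a core of cross-linked elastin laid on a scaffold of fibrillin microfibrils, with fibulins, emilins and latent TGF-beta binding proteins as assembly factors. Small leucine-rich proteoglycans coat collagen fibrils and set their diameter, while large lecticans such as versican hold water by binding hyaluronan. Matricellular proteins sit in the matrix without bearing much load and act on how cells attach, move and signal. In the heart this matrix lies in the valves, the walls of the coronary and great vessels, the epicardium and the spaces between muscle cells, and much of it is made by fibroblasts and smooth muscle cells.

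The libraries held 17766501, 18643408 and 18768094 counts. Markers of heart muscle (Myh6, Tnnt2, Actc1, Ryr2) were high in every heart, with a summed level of 45236 to 47783 TPM, the deposited FPKM rescaled so that each heart sums to 1000000. Heart 1 stood apart in RNA of the airway: Scgb1a1, a secretory protein of club cells, had 4096, 1 and 13 counts in hearts 1, 2 and 3. In whole tissue, fewer cells of a type and less RNA per cell cannot be told apart. The titles do not say whether the hearts came from separate litters, so a p-value here speaks only of how far these 3 samples differ, and part of that may be technical.

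Nearly the whole group was expressed. With detection set at 1 CPM (counts per 1000000 counted reads) in all hearts, 57 of the 58 genes were detected, beside 71.8% of all genes. Bcan, the brain lectican brevican, was the exception, at 0.196, 0.140 and 0.135 TPM in hearts 1, 2 and 3. The median gene of the group was at 50.2 TPM, beside 9.41 TPM over all genes and 19.1 TPM over all detected genes. Of the 58, 20 were above 100 TPM, 27 between 10 and 100, 9 between 1 and 10, and 2 were lower. Together they held 0.925%, 1.02% and 1.08% of all TPM in hearts 1, 2 and 3, and the 5 highest genes (Eln, Sparc, Postn, Dcn and Bgn) made up 56.7% to 57.9% of that share. In the order of mean levels, 45 of the 57 pairs of neighbours had ranges over the hearts that overlapped, so most adjacent places in the order are not separated by the spread between hearts.

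**Figure D1:**
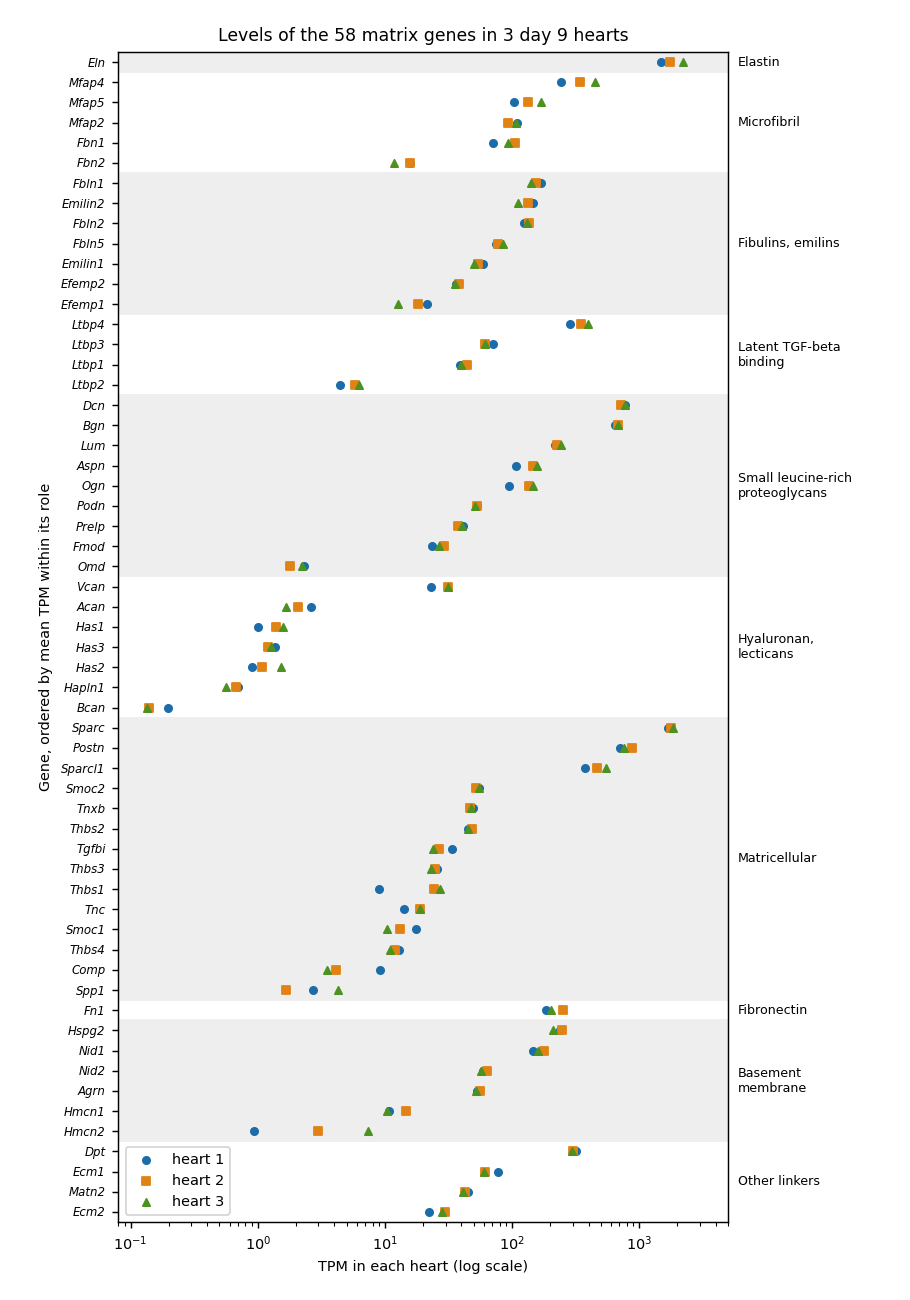
Level of each of the 58 genes in TPM (x axis, log scale) in heart 1 (circle), heart 2 (square) and heart 3 (triangle), grouped by role and ordered by mean within a role. Eln and Sparc lie farthest right in every heart, Bcan farthest left, and the symbols of most genes nearly coincide, with Hmcn2, Thbs1 and Comp among those spread out.

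Elastin and Sparc were the most abundant genes of the group, and the hearts did not agree on their order. Eln had the higher mean, but Sparc was higher in hearts 1 and 2, in the mean without heart 3, and in the mean with longest transcript lengths. Eln (Entrez gene ID 13717, chromosome 5, 134702595 to 134747368 on the minus strand of GRCm38) encodes tropoelastin, the soluble precursor of the elastic core. It reached 1495, 1740.0 and 2221 TPM in hearts 1, 2 and 3, or 1819 ± 369 TPM (SD, n = 3 throughout), rank 55 of all genes. Heart 3 was highest and heart 1 lowest, and the highest heart exceeded the lowest by 1.54-fold on the scaled CPM used for the test between hearts. That spread did not pass the test (edgeR goodness of fit, Benjamini-Hochberg adjusted p = 0.522).

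The microfibril genes were well below elastin. Mfap4, a microfibril-associated glycoprotein of vessel walls (ID 76293, chromosome 11, 61485378 to 61488708, plus strand), was at 242, 344 and 452 TPM. Mfap5, which binds fibrillin, was at 104, 134 and 170 TPM. Both were lowest in heart 1 and highest in heart 3. Mfap2, its paralog and a second fibrillin-binding glycoprotein, was at 109, 92.5 and 108 TPM, so Mfap2 exceeded Mfap5 in heart 1 and lay below it in hearts 2 and 3. Fibrillin-1, the main microfibril protein, was represented by Fbn1 at 89.7 ± 17.1 TPM, and fibrillin-2, a form of early development, by Fbn2 at 14.4 ± 2.26 TPM. Fbn1 exceeded Fbn2 in 3 of 3 hearts, with a mean log2 ratio of 2.63 ± 0.406. Eln exceeded Fbn1 by a log2 ratio of 4.34 ± 0.269, also in every heart. The ratios carry no test, since 3 hearts allow an exact two-sided sign-flip p of 0.25 at the smallest.

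Fibulins and emilins, which link elastin to microfibrils and cells, were all detected (7 of 7). Fbln1, which binds fibronectin and is abundant in valves, was at 169, 153 and 142 TPM. Fbln2, a fibulin of the embryonic endocardial cushions, was at 125, 136 and 130 TPM. Emilin2 was at 147, 133 and 111 TPM. Emilin2 overlapped both fibulins in range, while Fbln1 and Fbln2 did not overlap each other. Fbln1 exceeded Fbln2 in every heart by a mean log2 ratio of only 0.25 ± 0.168, and the ratio turned to -0.56 without a length correction and to -0.18 with the longest annotated transcript as the gene length. Emilin2 lies wholly within the span of Myom1, a sarcomere gene on the opposite strand at 525 TPM. Because the strand setting of the counting is not given, reads of the 2 genes cannot be told apart where they overlap.

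Fbln5 and Efemp2 (fibulin-4) are both needed for elastic fibres to form. They were at 79.1 ± 4.96 and 36.7 ± 1.46 TPM, with Fbln5 higher in every heart (mean log2 ratio 1.11 ± 0.117). Efemp1 (fibulin-3) was at 17.5 ± 4.41 TPM and lay below Efemp2 in every heart, by a mean log2 ratio of -1.10 ± 0.374. Emilin1, which restrains TGF-beta processing in vessel walls, was at 54.4 ± 4.58 TPM, below Emilin2 by -1.25 ± 0.0915.

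Among the latent TGF-beta binding proteins, Ltbp4 stood out. Ltbp4, which also guides elastin onto microfibrils (ID 108075, chromosome 7, 27305140 to 27339709, minus strand), was at 285, 351 and 397 TPM. It held 71.3%, 75.9% and 78.7% of the summed TPM of the 4 genes. Ltbp3 was at 70.9, 61.4 and 60.9 TPM, and Ltbp1, the classical carrier of latent TGF-beta, at 39.2, 44.1 and 40.0 TPM. Ltbp2, which binds fibrillin but not latent TGF-beta, was at 5.50 ± 0.945 TPM. Ltbp4 exceeded Ltbp2 by a log2 ratio of 5.97 ± 0.0490, and this ratio varied little between hearts.

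Of the small leucine-rich proteoglycans, all 9 were detected and 2 led. Decorin, which binds collagen fibrils and TGF-beta, was represented by Dcn (ID 13179, chromosome 10, 97479500 to 97518163, plus strand) at 767, 724 and 768 TPM. Biglycan, its closest relative, was represented by Bgn (ID 12111, chromosome X, 73483601 to 73495936, plus strand) at 642, 684 and 688 TPM. Their ranges did not overlap, but the mean log2 ratio was small (0.17 ± 0.0877) and its sign depends on the gene length: it was -0.21 without a length correction and -1.03 with longest transcript lengths. Lumican, Lum, a keratan sulfate proteoglycan of collagen fibrils, was at 219, 224 and 241 TPM and lay below Dcn in every heart. It exceeded Fmod (fibromodulin, 26.4 ± 2.91 TPM), which binds the same region of collagen, by a log2 ratio of 3.11 ± 0.151. Prelp was at 39.7 ± 1.91 TPM, below Podn (podocan) at 52.4 ± 0.910 TPM in every heart. On the scaled CPM, 8 of the 9 were highest in heart 3, beside 33.4% of all tested genes. That count depends on the scale: it was 7 with total counts and 5 in TPM.

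Aspn (asporin, which inhibits TGF-beta), Ogn (osteoglycin) and Omd (osteomodulin) lie next to each other with Ecm2, a related leucine-rich matrix gene, on chromosome 13. In order along the plus strand these are Ecm2 (49504791 to 49534492), Aspn (49544443 to 49567565), Omd (49579754 to 49592612) and Ogn (49608071 to 49624500), with no other gene of the table between them. All 4 lie inside the span of Cenpp, a centromere gene on the minus strand with 99.0 to 118 counts per heart. Levels along this stretch differed by far: Ogn was at 126 ± 27.2, Aspn at 137 ± 26.4, Ecm2 at 26.6 ± 3.91 and Omd at 2.12 ± 0.276 TPM. Ogn exceeded its neighbour Omd by a log2 ratio of 5.88 ± 0.455. Omd had only 36.2, 28.8 and 37.3 counts.

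Of the 4 neighbours, Ogn, Aspn and Ecm2 were lowest in heart 1, as 38.7% of all tested genes were, and Omd was lowest in heart 2. Ogn was at 95.2, 136 and 147 TPM, Aspn at 107, 146 and 158, and Ecm2 at 22.2, 29.5 and 28.2. Heart 1 was the low one for these 3, and none passed the test between hearts (edgeR adjusted p = 0.153 for Ogn, 0.335 for Aspn and 1.00 for Ecm2). Promoter windows are shown for these 3, chosen as the more highly expressed genes of the cluster. A window of Omd was also at hand but is not shown. The windows are from RefSeq (GRCm38.p6), plus strand, 250 bases before to 50 after an annotated start, with capitals marking matches to the motifs listed after them.
Ecm2, chr13:49504560-49504859: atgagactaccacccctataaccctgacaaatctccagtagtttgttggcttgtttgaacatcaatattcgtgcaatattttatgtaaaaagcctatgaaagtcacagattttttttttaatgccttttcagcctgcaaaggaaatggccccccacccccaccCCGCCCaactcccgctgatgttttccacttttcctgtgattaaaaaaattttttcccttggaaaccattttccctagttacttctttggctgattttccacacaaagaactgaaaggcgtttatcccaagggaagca
Aspn, chr13:49544193-49544492: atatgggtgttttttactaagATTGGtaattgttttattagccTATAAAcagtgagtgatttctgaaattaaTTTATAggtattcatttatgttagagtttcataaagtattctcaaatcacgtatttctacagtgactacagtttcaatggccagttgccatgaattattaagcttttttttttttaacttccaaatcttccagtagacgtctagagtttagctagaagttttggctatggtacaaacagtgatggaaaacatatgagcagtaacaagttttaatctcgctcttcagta
Ogn, chr13:49607765-49608064: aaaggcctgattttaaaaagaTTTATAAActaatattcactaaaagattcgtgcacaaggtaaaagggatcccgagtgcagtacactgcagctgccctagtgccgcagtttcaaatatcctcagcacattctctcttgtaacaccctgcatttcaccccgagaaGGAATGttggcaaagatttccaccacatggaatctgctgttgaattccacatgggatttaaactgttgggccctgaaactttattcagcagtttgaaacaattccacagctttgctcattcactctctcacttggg

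Motifs were searched on both strands. The TATA motif was TATAAA, the GC box was GGGCGG, and the CCAAT box was searched by those letters. The AP-1 site was TGANTCA, which reads the same on both strands, and the TEAD site was GGAATG. The CArG box was searched as well. TATAAA was found in the windows of Aspn and Ogn but not in that of Ecm2, whose only match was a GC box on the minus strand. Aspn also held CCAAT on the minus strand, and Ogn a TEAD site. G and C made up 41.0% of the Ecm2 window, 31.0% of the Aspn window and 42.3% of the Ogn window. Each TATAAA match lay far upstream of the start, at base -207 or -178 in Aspn and at -229 or -227 in Ogn, where the 2 matches overlap. RefSeq windows were at hand for 42 of the 58 genes, 56 windows in all. The GC box was in 53.6% of these windows and in 35.7% of all 32851 windows, TATAAA in 16.1% and 13.6%, CCAAT in 32.1% and 37.4%, the AP-1 site in 8.93% and 7.81%, and the TEAD site in 12.5% and 14.7%. The CArG box was in 0 of the 56 windows and in 1.63% of all windows. Such matches are descriptions of letters in these windows.

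The hyaluronan and lectican genes had the lowest median level of any role, 1.28 TPM over 7 genes, and 6 of 7 were detected. Vcan, the large proteoglycan of embryonic and valve matrix (ID 13003, chromosome 13, 89655310 to 89742694), was at 23.2, 31.2 and 31.3 TPM. Its genomic neighbour Hapln1, whose link protein ties versican to hyaluronan, was at 0.648 ± 0.0768 TPM. Acan, the aggrecan of cartilage, was at 2.62, 2.06 and 1.66 TPM, and Vcan exceeded it by a mean log2 ratio of 3.77 ± 0.559. Bcan had 5 counts in each heart.

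The 3 hyaluronan synthases were near the detection minimum and could not be ordered. Has1 was at 0.997, 1.40 and 1.59 TPM, Has2, the enzyme needed for the cardiac jelly of the embryo, at 0.899, 1.08 and 1.53, and Has3 at 1.37, 1.20 and 1.28. Has2 had 34, 42 and 62 counts. Has2 was below Has3 in hearts 1 and 2 and above it in heart 3. It lay below Has1 in each heart per length (mean log2 ratio -0.19 ± 0.165), but above it without a length correction (0.85) and with longest transcript lengths (0.59).

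Sparc and Postn led the 14 matricellular genes, which were all detected. Sparc, a collagen-binding protein (ID 20692, chromosome 11, 55394159 to 55420423, minus strand), was at 1683, 1774 and 1838 TPM, rank 57 of all genes and not separated from Eln by the ranges over hearts. It made up 53.8% ± 1.46 of the summed TPM of the matricellular genes. Periostin, which promotes collagen cross-linking and marks activated fibroblasts and valve cells, was represented by Postn (ID 50706, chromosome 3, 54359272 to 54391041, plus strand) at 711, 876 and 759 TPM. Postn exceeded Tgfbi, its closest relative (28.0 ± 5.13 TPM), by a log2 ratio of 4.81 ± 0.362. Sparcl1, a Sparc relative of vessel walls, was at 378, 469 and 550 TPM, lowest in heart 1 and highest in heart 3, and lay below Sparc in every heart.

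Tnxb, the tenascin of loose connective tissue, was at 48.0 ± 1.47 TPM. On the scaled CPM it had the smallest range between hearts of the 57 tested genes, 1.02-fold. Tnc, the tenascin of developing and injured tissue, was at 17.3 ± 2.84 TPM and below Tnxb in every heart (mean log2 ratio of Tnxb over Tnc 1.49 ± 0.293). Smoc2, a secreted calcium-binding protein, exceeded Smoc1 in every heart (54.1 ± 1.54 and 13.6 ± 3.63 TPM). Spp1, the osteopontin of macrophages and bone, was low, with 33, 21 and 56 counts.

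Thrombospondins are multidomain proteins of which Thbs1 and Thbs2 restrain vessel growth and Thbs1 activates latent TGF-beta. Thbs2 was at 46.1 ± 1.99 and Thbs3 at 24.6 ± 1.39 TPM. Thbs1 (ID 21825, chromosome 2, 118111876 to 118127133, plus strand) was at 9.01, 24.3 and 27.0 TPM. Heart 1 was low and hearts 2 and 3 were close together. Thbs1 lay below Thbs2 in each heart, but its mean log2 ratio of -1.35 had an SD of 0.850 because the ratio was -2.32 in heart 1 and -0.73 in heart 3. Thbs4 was at 12.0 ± 0.991 TPM. Comp, the thrombospondin of cartilage and tendon (ID 12845, chromosome 8, 70373548 to 70382066, plus strand), was at 9.13, 4.12 and 3.52 TPM, with heart 1 the high one.

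Fibronectin and the basement membrane genes were abundant. Fn1, the adhesive glycoprotein on which other matrix fibres assemble (ID 14268, chromosome 1, 71585473 to 71653234, minus strand), was at 186, 253 and 203 TPM, below Sparc by a log2 ratio of -3.05 ± 0.210, or -1.42 without a length correction. Hspg2, which encodes perlecan, was at 237, 247 and 209 TPM, and exceeded Agrn (agrin, 53.5 ± 1.99 TPM) by 2.11 ± 0.0825. Nid1 and Nid2 encode nidogens, which join laminin to collagen IV. They were at 147, 177 and 160 TPM and at 59.2, 63.0 and 57.3 TPM, with Nid1 higher in every heart (log2 ratio 1.43 ± 0.104).

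Hemicentins are giant proteins of tissue seams. Hmcn1 was at 11.98 ± 2.28 TPM. Hmcn2 (ID 665700, chromosome 2, 31314178 to 31460738, plus strand) was at 0.938, 3.00 and 7.33 TPM, from 129, 430 and 1083 counts. Heart 3 was highest and heart 1 lowest, and no 2 hearts were close. The log2 ratio of Hmcn1 over Hmcn2 was therefore 3.53, 2.28 and 0.52 in hearts 1, 2 and 3.

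The remaining linkers were led by dermatopontin. Dpt, which binds decorin and is made by fibroblasts, was at 318, 304 and 297 TPM. Ecm1 was at 77.2, 61.3 and 60.7 TPM, and Matn2 (matrilin-2) at 44.7, 42.8 and 41.4 TPM. On the scaled CPM, Dpt and Matn2 differed between hearts by at most 1.05-fold and Ecm1 by 1.26-fold, none past the test. Ecm1 overlaps Tars2, on the opposite strand at 31.7 TPM, over its whole length. Matn2 shares 12030 bases on the same strand with Rpl30, a ribosomal protein gene at 710 TPM.

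**Figure D2:**
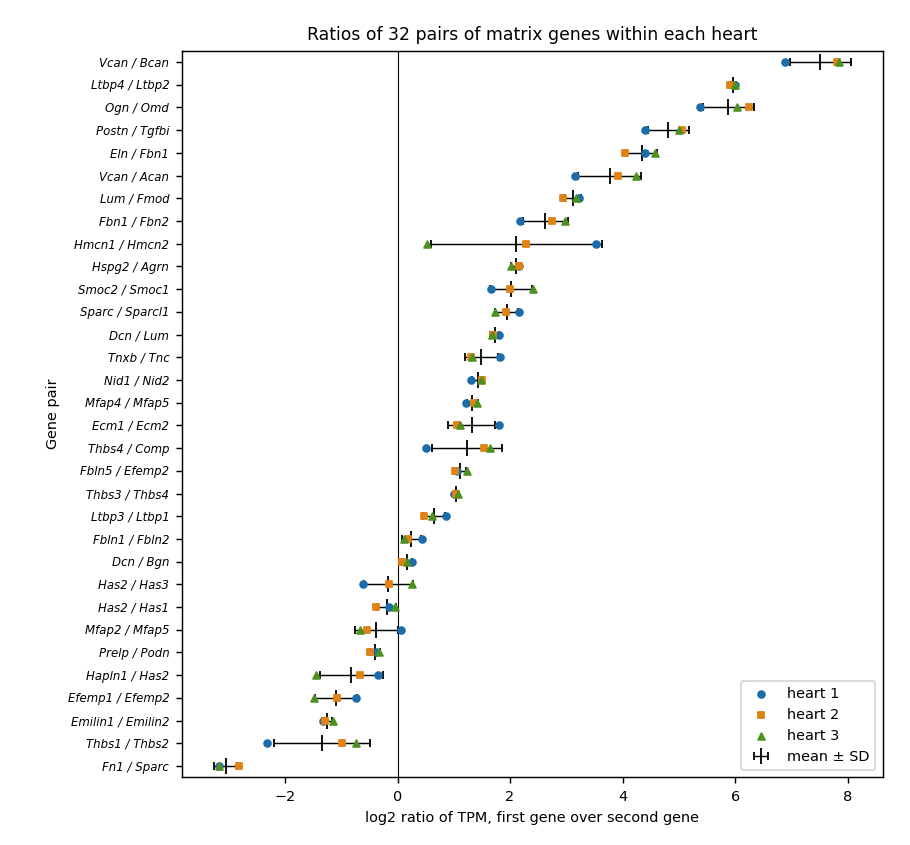
Log2 ratio of TPM (x axis) of the first gene over the second for 32 pairs of related matrix genes, with 1 symbol per heart and the mean ± SD over 3 hearts as a bar. In 30 pairs the 3 hearts lie on the same side of 0, while Has2 / Has3 and Mfap2 / Mfap5 cross it, and Hmcn1 / Hmcn2 has the widest bar.

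The size of many ratios rests on the gene lengths. Without a length correction, examples of log2 ratios that moved were Eln over Fbn1 (to 2.94), Fbln5 over Efemp2 (to 1.87) and Tnxb over Tnc (to 2.41). Others were Hspg2 over Agrn (to 3.15), Fn1 over Sparc (from -3.05 to -1.42) and Ecm1 over Ecm2 (from 1.32 to 0.40). With longest transcript lengths, Vcan over Acan moved to 2.84, Efemp1 over Efemp2 to -0.35, and Dcn over Lum from 1.72 to 0.64. These pairs kept their sign.

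Between hearts, 4 of the 57 tested genes of the group varied more than genes of their abundance: Hmcn2, Thbs1, Mfap4 and Comp. The share called over all 12958 tested genes was 1.67%, given for reference only because the list was made with earlier results known. The test compared each gene's deviance with the dispersion trend of all genes (edgeR goodness of fit, Benjamini-Hochberg over all tested genes). Hmcn2 differed by 8.07-fold between its highest and lowest heart (edgeR adjusted p = 6.5e-27), Thbs1 by 3.12-fold (3.17e-10), Mfap4 by 1.96-fold (0.00513) and Comp by 2.45-fold (0.0207). Heart 3 was the highest for Hmcn2, Thbs1 and Mfap4, beside 0.756% of all tested genes called with heart 3 highest. Heart 1 was the highest for Comp, beside 0.795%. No gene of the group was called with heart 2 highest, beside 0.116%. Mfap5 missed the threshold at 1.71-fold (edgeR adjusted p = 0.0664).

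The calls other than Hmcn2 depended on which hearts were in the fit. Without heart 1, Hmcn2 alone was called (edgeR adjusted p = 2.77e-10), and Thbs1, Mfap4 and Comp were not (1.00, 0.308 and 1.00). Without heart 3, Hmcn2 and Thbs1 were called (1.8e-05 and 5.13e-07) and Mfap4 and Comp were not (0.514 and 0.159). Without heart 2, Comp was not called (0.137). Comp also lost its call with no filter on low counts (0.0899).

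Hmcn2 is the called gene with a RefSeq promoter window, shown because it had the largest difference between hearts of the group. It is from GRCm38.p6, plus strand, and its only match to the motifs above, in capitals, is an AP-1 site. The site begins 101 bases before the annotated start used for the window. That start lies downstream of the gene start given above, 31314178, so the site falls inside the gene span.
Hmcn2, chr2:31314082-31314381: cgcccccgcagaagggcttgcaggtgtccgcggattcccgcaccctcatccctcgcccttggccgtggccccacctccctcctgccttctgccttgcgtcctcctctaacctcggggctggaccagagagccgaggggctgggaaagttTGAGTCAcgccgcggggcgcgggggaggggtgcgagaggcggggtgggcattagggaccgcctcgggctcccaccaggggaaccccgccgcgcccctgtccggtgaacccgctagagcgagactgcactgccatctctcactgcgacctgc
The window is 70.7% G and C, above the Ecm2, Aspn and Ogn windows.

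**Figure D3:**
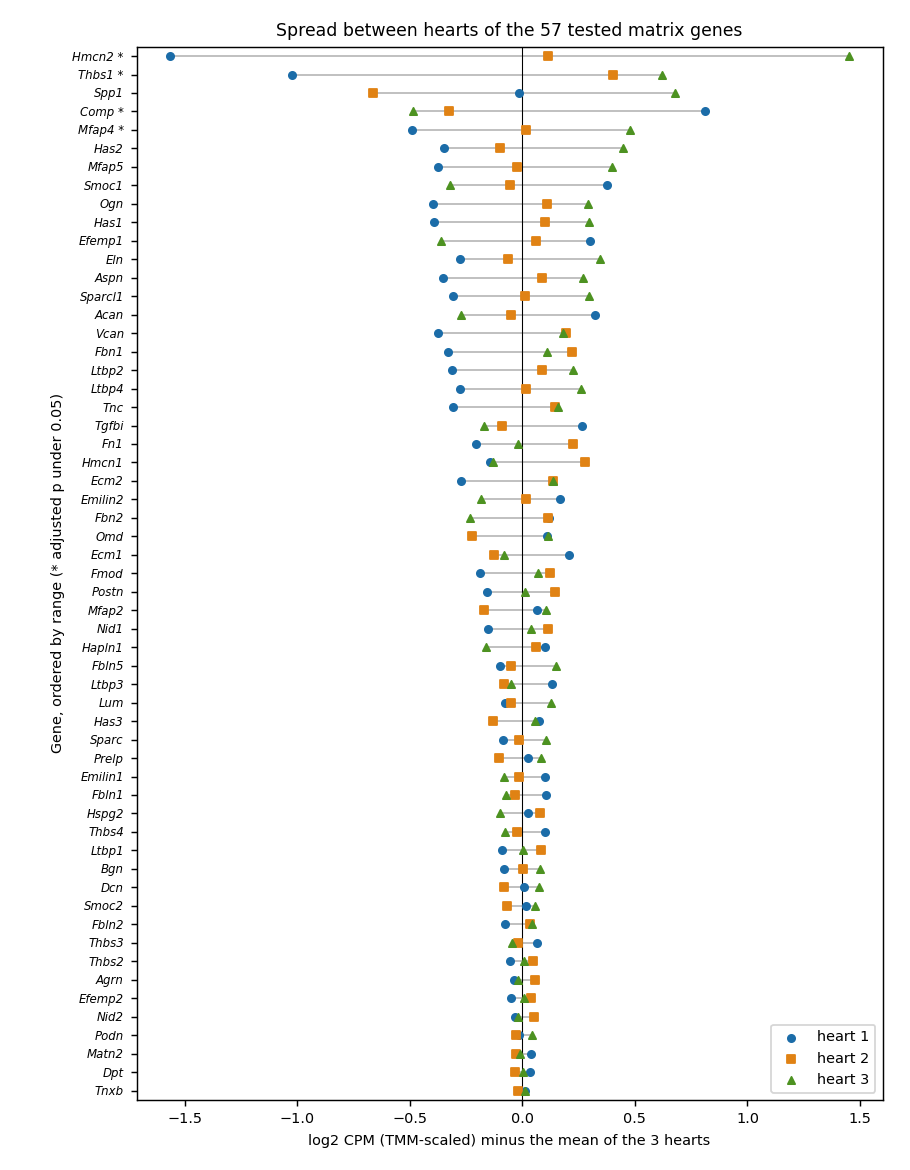
Log2 CPM of each heart minus the mean of the 3 hearts (x axis) for the 57 tested genes, ordered by range, with a grey line from lowest to highest heart and an asterisk for an adjusted p under 0.05. The range is widest for Hmcn2, at 8.07-fold, and narrowest for Tnxb, at 1.02-fold.

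The 57 genes differed between hearts in both directions. On the scaled CPM, heart 1 was the lowest for 31, heart 2 for 13 and heart 3 for 13, beside 38.7%, 29.1% and 32.1% of all tested genes. Heart 1 was the highest for 18, heart 2 for 13 and heart 3 for 26, beside 37.8%, 28.8% and 33.4%. With total counts, heart 1 was the lowest for 28 (beside 32.5% of all tested genes) and heart 3 the highest for 21 (beside 27.5%). In TPM, heart 1 was the highest for 22 and heart 3 for 20, so these counts move with the scale. The median difference of heart 1 from the mean of the other hearts was -0.07 on the log2 scale, beside -0.00068 over all tested genes, and that of heart 3 was 0.06, beside 0.0045. A range above 1.5-fold was found for 15 of the 57 genes, beside 10.8% of all tested genes. An unadjusted p under 0.05 was found for 13, beside 6.17%. The roles did not share 1 direction. The 7 fibulins and emilins had a median difference of 0.15 for heart 1, with 4 of them highest there, the other 3 lowest there and none called, while the 5 microfibril genes had -0.50 and the 4 latent TGF-beta binding proteins -0.27.

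Cell type markers differed between hearts beside these genes. The 4 smooth muscle markers summed to 406, 790.0 and 1077 TPM in hearts 1, 2 and 3, and Acta2 and Tagln of the list passed the test (edgeR adjusted p = 9.39e-09 and 0.0242) while Myh11 and Cnn1 did not. Most of that sum was Acta2, at 303, 670 and 918 TPM (6631, 14412 and 21115 counts). Myh11 and Cnn1 differed between hearts by only 1.26- and 1.37-fold on the scaled CPM. All 4 smooth muscle markers were highest in heart 3 on that scale. So were 26 of the 57 matrix genes, beside 33.4% of all tested genes. In TPM, however, 20 of the 57 were highest in heart 3 and 22 in heart 1. Among the 26 were Mfap4, Thbs1 and Hmcn2, which passed the test. Eln, Ltbp4, Mfap5 and Sparcl1, as well as Dcn, Bgn, Lum and Sparc, were also among them and did not pass. The 4 pericyte markers summed to 472, 660 and 623 TPM and the 4 endothelial markers to 603, 718 and 680 TPM. Both sums were lowest in heart 1 and highest in heart 2, and no marker of either list passed the test. Rgs5 made up most of the pericyte sum (267, 444 and 433 TPM). Abcc9 of that list was lowest in heart 3 (141, 142 and 115 TPM), and the other 3 were lowest in heart 1. The parts of smooth muscle, pericytes and endothelium in these differences were not tested. The 5 fibroblast markers summed to 1090, 938 and 987 TPM in hearts 1, 2 and 3, and none passed the test. On the scaled CPM, 2 of them were highest in heart 1, 1 in heart 2 and 2 in heart 3. Of the 4 skeletal muscle markers, Acta1 passed with heart 3 highest (312, 965 and 1761 counts). The other 3 did not follow it: Myh8 was highest in heart 2 and did not pass, Actn3 had 19, 17 and 5 counts, and Myh3 had 1, 3 and 3. The part of skeletal muscle was not tested.

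Other markers went with heart 1, as Comp did. Of the 5 mesothelial markers, Upk3b, Msln and Krt19 passed the test with heart 1 highest, Lrrn4 was also highest there without passing it, and Wt1 was lowest in heart 1 (416, 475 and 515 counts) and did not pass. The list summed to 192, 131 and 104 TPM. The 5 airway and lung markers summed to 1701, 0.580 and 6.50 TPM, and none reached the detection minimum in every heart. Nearly all of the heart 1 sum was Scgb1a1, Scgb3a2 and Cyp2f2, at 1202, 411 and 86.4 TPM. Sftpc and Sftpb had only 4 and 12 counts in heart 1. Comp had 194, 90 and 80 counts, and Chad, the leucine-rich repeat protein of cartilage, 111, 9 and 9. Of the cartilage markers, Col2a1 had 3, 3 and 10 counts and Matn1 had 0 in every heart, and the list summed to 10.8, 11.1 and 11.1 TPM. The 4 adipocyte markers summed to 352, 139 and 238 TPM, and Adipoq, Plin1 and Ucp1 passed the test with heart 1 highest. The parts of mesothelial, airway and fat tissue in the level of Comp were not tested.

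**Figure D4:**
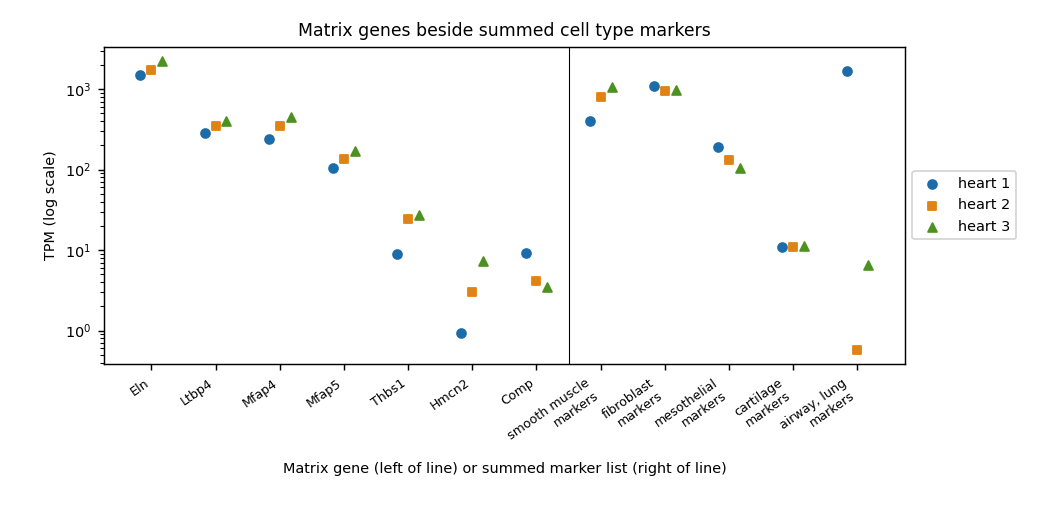
TPM (y axis, log scale) of 7 matrix genes (left of the line) and summed TPM of 5 marker lists (right of the line) in hearts 1, 2 and 3. Eln, Ltbp4, Mfap4, Mfap5, Thbs1 and Hmcn2 are lowest in heart 1, as is the smooth muscle sum, which is mostly Acta2. Comp and the mesothelial and airway sums are highest there, and the fibroblast and cartilage sums are nearly level.

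Genes listed as partners of this matrix came from 12 lists, 100 genes in all. Of these, 81 were detected, beside 71.8% of all genes, and 7 passed the test between hearts, beside 1.67% of all tested genes. The lists were chosen with earlier results of these data known, so a share above that of all genes cannot be read as a result. All 5 lysyl oxidases, the enzymes that cross-link elastin and collagen, were detected and none was called. Loxl1, which is tied to elastic fibre upkeep, led at 105 ± 11.2 TPM, ahead of Loxl2 at 72.9 ± 10.7 and Lox at 36.6 ± 6.76 TPM. TGF-beta ligands and receptors (6 of 6 detected, 0 called) were led by Tgfb1 at 54.9 ± 1.77 and Tgfbr2 at 51.8 ± 5.53 TPM. Matrix receptors (13 of 14 detected, 0 called) were led by the scavenger and thrombospondin receptor Cd36 at 799.8 ± 72.5 TPM and the integrin chain Itgb1 at 403 ± 23.7 TPM.

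The enzymes that build and cut these proteins were mostly present. All 13 genes of glycosaminoglycan chain synthesis were detected and none was called, with Ndst1 at 50.2 ± 5.37 and Ext2 at 47.2 ± 3.23 TPM as the highest. Of 11 matrix proteases, 9 were detected, led by Mmp2 (189.9 ± 12.6 TPM) and Htra1 (164 ± 7.91 TPM). Adamts1, a protease that cuts versican, passed the test, with 16.1, 24.9 and 30.3 TPM and heart 1 lowest (edgeR adjusted p = 0.00696). Of 6 genes of hyaluronan binding and turnover, 5 were detected, led by Hyal2 (30.7 ± 1.65 TPM) and Hmmr (21.3 ± 7.30 TPM). Hmmr, a hyaluronan-binding protein of dividing cells, was called with heart 2 highest (edgeR adjusted p = 0.0258).

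Relatives outside the group ranged from high to nearly absent. None of 6 further small leucine-rich genes (Chad, Epyc, Kera, Nyx, Optc and Podnl1) and none of 4 further lectican and link genes (Hapln2, Hapln3, Hapln4 and Ncan) was detected in every heart, though Chad was at 7.82 TPM in heart 1. Of 11 further matricellular genes, 9 were detected and 4 were called. Mgp, an inhibitor of calcification, was at 572 ± 91.5 TPM and Fstl1 at 395 ± 44.5 TPM. Cyr61, Ctgf and Nov, which belong to the CCN family, were called with heart 3 highest (edgeR adjusted p = 9e-13, 1.39e-09 and 0.0490), and Spock2 with heart 1 highest (1.23e-07). Ctgf was at 38.5, 77.7 and 110 TPM and Cyr61 at 21.1, 35.2 and 73.6 TPM, both lowest in heart 1, as Thbs1 was.

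Of 9 further genes listed beside the fibulins, emilins and matrilins, 6 were detected and none was called. Mfap1a was at 40.1 ± 0.719 and Mmrn2 at 40.1 ± 4.25 TPM. Mfap1a and Mfap3 were listed for their symbols and are not members of these families. The 9 collagen genes were all detected and led by Col3a1 (1231 ± 77.3 TPM) and Col1a1 (667 ± 23.2 TPM), between the levels of Eln and Fn1. Col8a1, a collagen of vessel walls, was called, with 3.46, 5.28 and 8.22 TPM (edgeR adjusted p = 0.00409). The 6 laminin genes were all detected, led by Lamc1 (219 ± 20.6 TPM) and Lamb1 (156 ± 8.87 TPM), and none was called.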

How the data were processed

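Gene expression was measured by RNA sequencing (DNBSEQ libraries of Trizol RNA, per the labels' protocols) in 3 hearts. The deposited table gives expected counts, part of them fractional, and FPKM per gene and heart, per the file headers. The submitters' processing notes name HISAT and GRCm38.p6. The counting tool, annotation and strand setting were not given in the sources used here. The authors' 2 mean columns were not used, and a broken line with no gene or values was left out.

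TPM is the authors' deposited FPKM rescaled to 1000000. Expected counts were rounded for edgeR 4.0.16 (R 4.3.3). Genes at 1 CPM or more in every heart were scaled by TMM (factors 1.02, 0.998 and 0.986), and an intercept-only fit with trended dispersion gave each gene's deviance, tested against chi-square with a threshold of 0.05. DESeq2 1.42.0 served as an alternative. Simulated counts of 12958 genes were drawn with the observed means and the same trended dispersion that the test assumes. Of 100 genes changed 2-fold in 1 heart, 59 were recovered, and 100 of 100 changed 4-fold. Among 12758 unchanged genes 1 was called. That rate follows from the assumed dispersion, so it does not measure false calls in the real data. Libraries differed beyond counting error (chi-square per degree of freedom 14.6, 23.7 and 9.70 by pair), so each counted as 1 sample.

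Members, lists, pairs and roles were chosen with earlier results of these data known. Each member is named. Values per heart are given for the 3 highest of each role, members that passed the test, members below the minimum and pairs that turned, and of each partner list the 2 highest and those called are named. Values per heart of Ogn, Aspn, Ecm2, Omd, Spp1 and single markers, and the direction counts under other scales, were added after values were seen. A planned description of protein sequences was not made, and promoter windows were described in its place.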

Additional observations from a re-analysis of the deposited data

How the results depend on the processing

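Leaving out 1 heart left 1 to 3 of the 4 variable matrix genes called (edgeR) and called 80 to 112 genes over the whole table, beside 216 with all hearts. DESeq2 marked 101 genes as dispersion outliers, among them Hmcn2, Mfap4 and Thbs1. Median of ratios factors, total counts and a common dispersion each called the same 4 matrix genes. The matrix genes held 1.01% of all TPM, but 1.77% of all counts without a length correction and 1.19% with longest transcript lengths, so their summed level rests on the lengths used. The orders of 3 pairs turned under the same settings, without a length correction and with longest transcript lengths: Fbln1 over Fbln2 (-0.56 and -0.18), Dcn over Bgn (-0.21 and -1.03) and Has2 over Has1 (0.85 and 0.59). Beyond these, 17 and 16 of the 32 ratios moved by more than their SD over hearts under the 2 settings without a change of sign, except Mfap2 over Mfap5. In Has2 over Has3 and Mfap2 over Mfap5, the hearts themselves disagreed, and the means turned to 0.05 without heart 1 and to 0.51 with longest transcript lengths. Counts of detected genes were 50 to 57 under every minimum tried. The median differences of each heart over the matrix genes kept their sign under each scaling, but counts of genes highest in heart 3 fell from 26 to 21 with total counts and to 20 in TPM, a check added after seeing the data. The planned protein description was not run. No paired analysis was possible because the hearts form 1 group and their numbers pair them with no other sample. Depth limits Bcan, Omd, Spp1 and the hyaluronan synthases, which had few counts.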
